A study of Mus musculus with 20 samples.

Results

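The day 5 restriction regions are 2843 stretches of accessible chromatin found in wild-type C2C12 cells after methionine restriction and called in neither the starting cells nor the matched control cells. They were chosen by peak calls. Peaks of all 20 libraries that overlapped by 1 bp or more were joined. A merged region was kept when a peak overlapped it in both WT D5 MR lists, in no WT D0 list and in no WT D5 CTL list. The kept regions were 2.81% of the 101352 merged regions and 8.44% of the 33682 regions called in both WT D5 MR lists. The calls in these 6 libraries defined the regions, so values from them are described and not tested.

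C2C12 is a mouse myoblast line, a model of the muscle precursors that leave the cell cycle, fuse and build contractile fibres. ATAC-seq marks open DNA through the insertion of sequencing adapters by a transposase. The libraries came from wild-type cells (WT) or from lines with a knockout of Setd2 (KO). The D0 cells have no medium in the labels. The D1 and the D5 cells were kept either in a control medium, CTL, or with restricted methionine, MR, which makes 10 groups of 2 libraries. The WT libraries are replicates 1 and 2, and the KO libraries are 1 library of line 1 and 1 of line 2 per condition, so their spread includes the difference between lines. The labels do not say whether replicates were separate cultures, so the spread between them may be technical.

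Setd2 places the trimethyl mark on lysine 36 of histone H3 in the bodies of transcribed genes, and methionine is the source of S-adenosylmethionine, the methyl donor for that reaction. In differentiating myoblasts MyoD and myogenin bind E-box sequences, MEF2 factors act beside them, and enhancers and promoters of contractile genes open. A peak list records only whether a site passed the authors' threshold in that library, so a site without a call can still be accessible.

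The lists held 644 to 69881 peaks. The WT D5 CTL lists held 22465 and 20847 peaks, against 39538 and 39263 in WT D5 MR, so absence from CTL was judged on shorter lists. KO line 1 at D5 gave 644 peaks in CTL and 1881 in MR. A gene was scored by a peak at most 1 kb from either of its ends. Of the genes that mark the myogenic lineage, Myod1, Des and Cdh15 were scored in 10 of 10 WT lists each, and Myf5 and Pax7 in none. Myog, the gene of myogenin, was scored in 8 of 10 WT and 0 of 10 KO lists. Setd2 was scored in 10 WT and 8 KO lists, which does not check the knockout.

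Some regions lay on promoters of muscle genes, and 6 of these are printed to show what was called. RefSeq promoter windows of build GRCm38.p6 run from 250 bases before a gene start to 50 bases after it, and 84 of 32619 windows were overlapped by a day 5 restriction region. Of the 84, 54 windows belonged to 52 protein-coding genes, and 11 of these genes were on the gene lists described further on. The 6 genes shown are those whose window held CAGCTG before the start, in each case inside the called region. Only the 250 bases before the start are printed. CAGCTG and CAGGTG are E-boxes that myogenic factors bind, and GGAATG is the core that TEAD factors bind. Capitals mark both E-boxes, the TEAD core and the MEF2 site. The second E-box reads CACCTG when it lies on the other strand.
Cox8b: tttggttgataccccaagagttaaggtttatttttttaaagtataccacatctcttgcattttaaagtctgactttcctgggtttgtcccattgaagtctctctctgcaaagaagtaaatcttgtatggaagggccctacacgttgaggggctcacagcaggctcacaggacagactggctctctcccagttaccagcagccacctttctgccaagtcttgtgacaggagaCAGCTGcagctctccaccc
Pgam2: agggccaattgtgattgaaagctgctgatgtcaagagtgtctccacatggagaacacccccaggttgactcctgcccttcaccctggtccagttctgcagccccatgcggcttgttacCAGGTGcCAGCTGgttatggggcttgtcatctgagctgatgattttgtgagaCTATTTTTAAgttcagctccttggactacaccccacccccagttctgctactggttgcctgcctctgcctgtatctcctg
Klhl41: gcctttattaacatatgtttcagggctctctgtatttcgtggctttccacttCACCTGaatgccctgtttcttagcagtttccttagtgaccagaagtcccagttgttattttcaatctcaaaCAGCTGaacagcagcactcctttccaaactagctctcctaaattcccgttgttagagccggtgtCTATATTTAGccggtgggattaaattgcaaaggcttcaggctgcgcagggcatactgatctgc
Myoz2: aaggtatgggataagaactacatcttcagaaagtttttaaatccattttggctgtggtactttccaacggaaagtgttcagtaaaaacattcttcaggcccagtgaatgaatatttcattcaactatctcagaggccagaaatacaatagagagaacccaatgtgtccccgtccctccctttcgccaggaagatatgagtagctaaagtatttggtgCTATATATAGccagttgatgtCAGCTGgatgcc
Nrap: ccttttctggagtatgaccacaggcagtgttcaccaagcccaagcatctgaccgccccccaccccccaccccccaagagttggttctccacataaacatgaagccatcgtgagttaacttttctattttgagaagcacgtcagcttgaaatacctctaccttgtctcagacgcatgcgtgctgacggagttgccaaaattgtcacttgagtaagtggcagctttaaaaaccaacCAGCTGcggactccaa
Trim63: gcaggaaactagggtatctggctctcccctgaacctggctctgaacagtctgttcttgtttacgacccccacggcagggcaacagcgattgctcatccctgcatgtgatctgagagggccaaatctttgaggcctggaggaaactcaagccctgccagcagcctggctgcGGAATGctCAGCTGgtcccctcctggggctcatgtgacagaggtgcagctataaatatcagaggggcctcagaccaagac

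The windows are those of Cox8b (chr7:140900447-140900696, minus strand), Pgam2 (chr11:5803797-5804046, minus strand), Klhl41 (chr2:69669870-69670119, plus strand), Myoz2 (chr3:123034988-123035237, minus strand), Nrap (chr19:56390039-56390288, minus strand) and Trim63 (chr4:134314870-134315119, plus strand). Cox8b encodes a muscle subunit of cytochrome c oxidase and Pgam2 the muscle phosphoglycerate mutase. Klhl41 and Nrap act in myofibril assembly, Myoz2 encodes a Z-disc protein, and Trim63 encodes the ubiquitin ligase MuRF1. The last base of CAGCTG lay 14 bases before the start in Cox8b, 11 in Nrap and 7 in Myoz2. It lay 67 bases before the start in Trim63, 120 in Pgam2 and 122 in Klhl41. Pgam2, Klhl41 and Myoz2 also held a MEF2 site, which ended 71, 54 and 24 bases before the start. The other 5 listed genes were Cdkn1a, Fabp3, Csrp3, Mybpc2 and Dysf. Of these, Mybpc2 held CAGGTG before the start, outside the called region.

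Over all 54 protein-coding windows that a day 5 restriction region overlapped, 37.0% (20 windows) held CAGCTG anywhere in the 300 bases, against 15.7% of all 21045 protein-coding windows. The MEF2 site was in 14.8% (8 windows) against 2.61%. CAGGTG was in 20.4% against 19.9%, GGAATG in 16.7% against 13.5%, and TGANTCA, the letters that AP-1 factors bind, in 7.41% against 7.04%. The CArG box, which serum response factor binds, was in 0 of the 54 windows and in 1.54% of all windows. Both strands were searched, and the share of windows with CAGCTG or CAGGTG was 50% against 32.2%.

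These shares were also set against other regions of the same libraries. Regions kept from D0 were defined as called in both WT D5 MR lists, both WT D0 lists and neither WT D5 CTL list, 7543 in all. They overlapped 851 protein-coding windows, of which 13.9% held CAGCTG and 1.65% a MEF2 site. The 17053 regions called in all 4 WT D5 lists overlapped 6387 windows, of which 14.7% held CAGCTG and 1.05% a MEF2 site. Windows overlapped by any merged region gave 15.4% and 1.33%. CAGCTG and the MEF2 site were thus more frequent in the windows of the day 5 restriction regions than in each of these other sets of windows, as a description over 54 windows that include the 11 listed genes. A match is a run of letters, and binding was not measured.

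**Figure D1:**
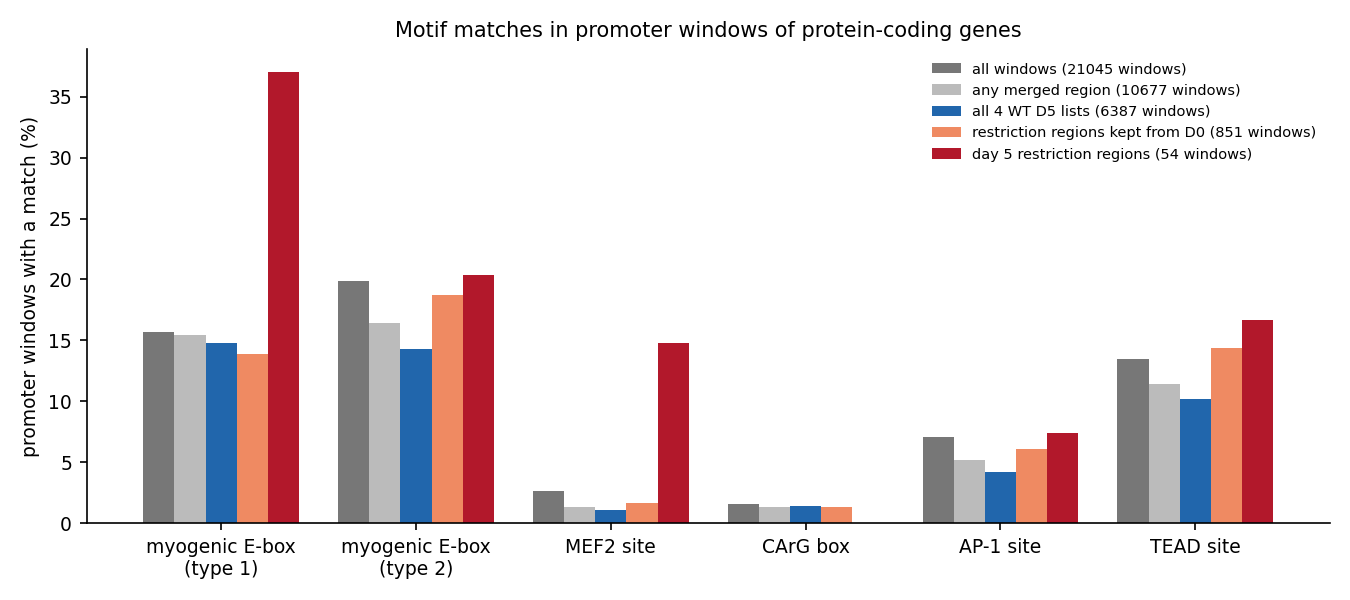
Percent of promoter windows of protein-coding genes (y axis) with a match to each of 6 motifs (x axis), for all windows and for windows overlapped by 4 sets of regions; type 1 is CAGCTG and type 2 is CAGGTG, and bars carry no error because each is a single share. The bars of the day 5 restriction regions stand at 37.0% for CAGCTG and 14.8% for the MEF2 site, where the other sets reach at most 15.7% and 2.61%.

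Strength was described from the values that chose the regions. The authors' −log10 q-value of the day 5 restriction regions had a median of 4.03 in WT D5 MR replicate 1 and 3.23 in replicate 2, where the lists as a whole had medians of 7.06 and 6.25. As percentiles within the list these were 27.3 and 24.0. Regions kept from D0 stood at percentiles 37.7 and 37.0, and regions called in all 4 WT D5 lists at 76.6 in both. In the upper part of both MR lists, above the 50th percentile, lay 202 day 5 restriction regions (7.11%), 19.3% of those kept from D0 and 78.9% of those in all 4 WT D5 lists. The day 5 restriction regions were thus mostly weak peaks. They were also short, with a median length of 184 bp against 281 bp for regions kept from D0 and 467 bp for regions in all 4 WT D5 lists.

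**Figure D2:**
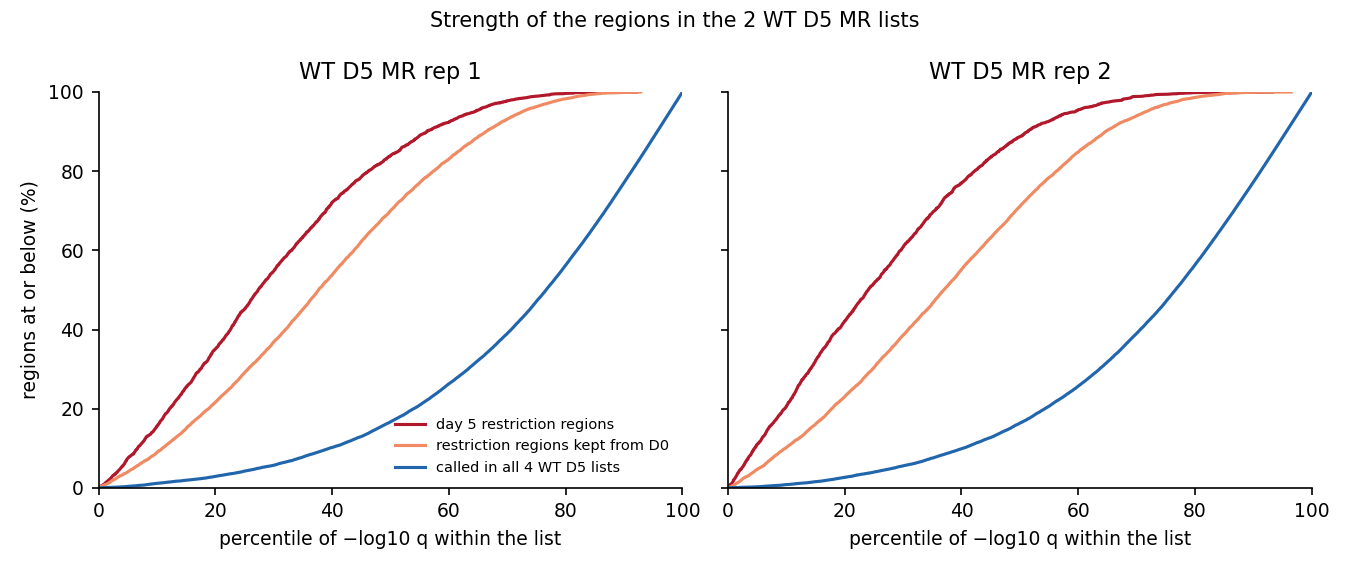
Cumulative percent of regions (y axis) at or below each percentile of the −log10 q-value within the list (x axis), for the 2 WT D5 MR libraries; lines stand for 3 sets of regions. The line of the day 5 restriction regions lies left of both others, with medians at percentiles 27.3 and 24.0.

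A single region stood above the 90th percentile in both lists. It lay in the body of Itga5, the gene of the alpha 5 subunit of the fibronectin receptor (chr15:103355532-103355739). Its −log10 q-values were 29.0 and 27.8, with the authors' fold enrichment at 7.004 and 7.0003, and no other of the 20 lists held a peak there. Next in strength was a 651 bp region in Rab22a, a GTPase of endosomal traffic (chr2:173689732-173690382), with 19.9 and 16.3. That region was also in all 4 WT D1 lists, with 14.4 and 8.62 in CTL and 41.4 and 39.8 in MR. KO D1 MR gave 2.14 and 1.54 there and KO D1 CTL no call. The other 8 of the strongest 10 lay in or next to Abca12, Unc5b, Trappc11, C2cd5, Foxq1, Bod1l, Srgap2 and 1700030K09Rik.

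The weakest regions show where the threshold fell. The lowest ranks belonged to regions at Zbtb7b (chr3:89390224-89390420, −log10 q-values 1.13 and 1.06) and Paxx (chr2:25456669-25456839, 1.24 in both). Just outside, 1492 regions missed the definition through a peak in WT D0 replicate 2 alone, 219 through WT D0 replicate 1 alone, 320 through WT D5 CTL replicate 1 and 206 through replicate 2. The median −log10 q-value of these excluding peaks was 2.54 to 3.35, at percentiles 14.3 to 17.7 of their lists. The 2 regions with the weakest excluding peak lay at Lao1 (chr4:119001750-119001990) and Gm281 (chr14:13770823-13770999), each with 1.30 in WT D0 replicate 1. A peak of an excluded list lay within 200 bp of 1 day 5 restriction region and within 1000 bp of 366 (12.9%).

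At D1 the regions were called in WT cells about as often as merged regions in general in at least 1 list, and less often in all 4. At least 1 of the 4 WT D1 lists held 2174 of them (76.5%), beside 75.8% of all merged regions. All 4 held 575 (20.2%), beside 37.2%, and 669 (23.5%) were in none. WT D1 CTL held 46.9% in replicate 1 and 28.1% in replicate 2, a mean of 37.5 ± 13.3% (SD, n = 2), beside 48.8% of all merged regions. WT D1 MR held 67.4% and 51.8%, a mean of 59.6 ± 11.04% (SD, n = 2), beside 60.8%. Both MR libraries were above both CTL libraries, and the means were 22.1 percentage points apart. Over all merged regions the same difference was 11.97 points, with lists of 60173 and 45545 peaks in CTL and 69881 and 57676 in MR, so longer MR lists go with it and their part in the result was not tested. It was 6.96 points for regions kept from D0 and 0.40 for regions in all 4 WT D5 lists, which were called at 91.9% or more on average and had little room to rise. With 2 libraries against 2 the smallest exact permutation p is 0.333, so no test was made.

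Counted region by region, 467 of the day 5 restriction regions (16.4%) were in both WT D1 MR lists and neither CTL list, where the percentage over all merged regions was 7.73. The reverse pattern, both CTL and neither MR, held for 46 (1.62%), beside 1.33 over all regions. In KO at D1, 30 (1.06%) were in both MR lists and neither CTL list, beside 0.253% of all regions, and 19 (0.67%) showed the reverse, beside 2.74%. At D5 in WT, 11.9% of all regions were in both MR lists and neither CTL list, a contrast that the definition used.

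The strongest of the 467 lay in Abca12, a lipid transporter gene (chr1:71394233-71394454), and in Unc5b, a netrin receptor gene (chr10:60770929-60771224). The Abca12 region had −log10 q-values of 9.04 and 7.51 in WT D1 MR and of 15.9 and 14.7 in WT D5 MR, with no KO call. The Unc5b region had 40.4 and 34.2 in WT D1 MR and 15.9 and 15.3 in WT D5 MR. In KO it was called with 7.48 at D0 in line 1 and with 7.05 and 4.24 at D1 in MR, so the MR pattern at D1 held in both genotypes at this site. The others were at Ubtd1, Pabpc6 and a site with no protein-coding gene within 100 kb (chr13:110633318-110633642).

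Among the day 5 restriction regions, median strength at D5 was higher in regions called in more WT D1 lists. The rank used here is the lower of the percentiles in the 2 WT D5 MR lists, and its median was 13.7 for the 669 regions in no WT D1 list. It was 14.7, 17.01, 19.5 and 26.9 for regions in 1, 2, 3 and 4 of the WT D1 lists. The rank comes from the lists that chose the regions. No other set of regions was put beside these medians, so the pattern is not shown to be particular to this set. Regions called in no list but those of WT D5 MR numbered 454 (15.97%), without a matching share over all merged regions here. The strongest of them after Itga5 lay at Abra, Vac14, Ubtd1 and Pparg. Abra encodes STARS, a muscle actin-binding protein that activates signalling to serum response factor, and its region overlapped the gene end (chr15:41869657-41869952) with −log10 q-values of 19.2 and 10.7.

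Calls in KO cells differed between the lines. At D1 KO line 1 held 45.9% of the regions in CTL and 39.1% in MR, and line 2 held 15.5% and 17.7%. The same lists held 58.9% and 47.2% of all merged regions in line 1 and 43.0% and 33.6% in line 2, so the regions were below the share of all regions in each of the 4 lists. Line 1 thus lay within the range of the 4 WT D1 libraries (28.1% to 67.4%) and line 2 lay below all of them. The mean of the 4 libraries was 48.5 ± 16.2% in WT and 29.6 ± 15.2% in KO (SD, n = 4, both media of each replicate or line), a difference of 18.99 points that was 31.9 without line 1 and 6.04 without line 2. The same difference was 15.02 points for regions kept from D0, 7.0002 for regions in all 4 WT D5 lists and 9.10 over all merged regions. KO D1 lists held 61045 and 46664 peaks in CTL and 48460 and 35201 in MR. When every list was limited to its 20000 strongest peaks, the definition gave 951 regions, 209 of them among the 2843, and the difference turned to −3.42 points.

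In KO at D1 the share differed between MR and CTL by −6.72 points in line 1 and by 2.11 points in line 2, while over all regions both lines were lower in MR, by −11.8 and −9.36 points. At D5 line 2 held 13.6% of the regions in CTL and 9.22% in MR, beside 28.7% and 21.4% of all merged regions. Line 1 at D5 held 0% and 0.317% of them in its lists of 644 and 1881 peaks, so KO at D5 rests on 1 line. Whether the effect of restriction differed between genotypes was not tested, because no p was computed for a share over regions that were chosen with results known.

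The regions were called less often in starting KO cells than merged regions as a whole, but they were not absent from them. KO D0 line 1 held 32.9% of them and line 2 4.75%, where these lists held 60.6% and 28.7% of all merged regions. The definition removed regions with a WT D0 peak, while the WT D0 lists held 39.9% and 46.6% of all merged regions. A lower share at KO D0 can thus follow from the choice of regions, and its part was not tested. The same applies to the shares set beside all merged regions at D1 and D5. In total 953 regions (33.5%) were in at least 1 KO D0 list, 818 of them in line 1 alone and 117 in both. The line 1 list held 63530 peaks and the line 2 list 30629. Shares over all merged regions are not given here for these combined counts. Absence from starting cells therefore applies to the WT D0 lists, which the definition used, and not to the myoblasts of both genotypes.

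**Figure D3:**
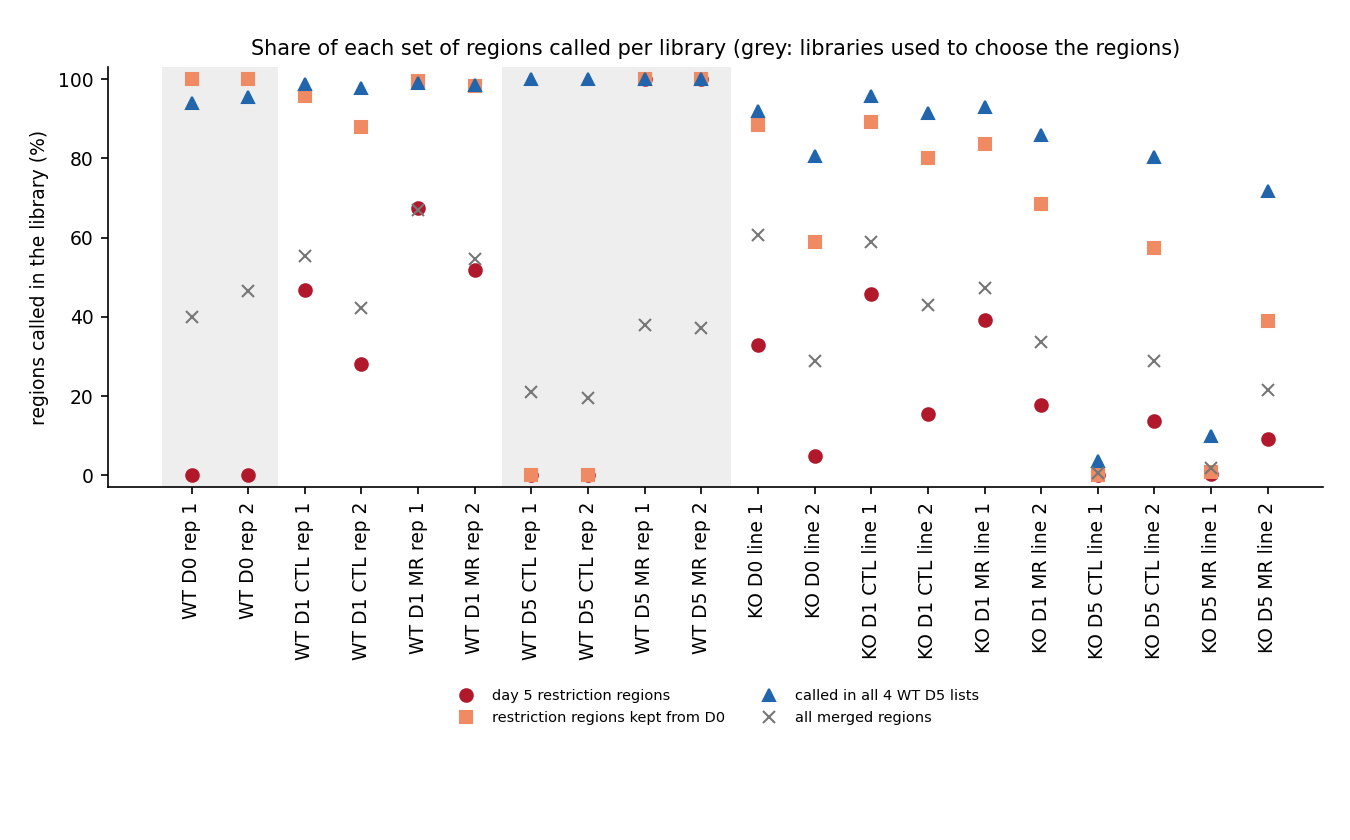
Percent of regions called (y axis) in each of the 20 libraries (x axis, labelled by genotype, day, medium and replicate or KO line) for 4 sets of regions; each point is 1 library and grey bands mark the 6 libraries that defined the day 5 restriction regions. At D1 those regions stand at 28.1% to 67.4% in WT and at 15.5% to 45.9% in KO, with line 2 lowest.

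Some regions differed in their calls between the genotypes at D1. Of the day 5 restriction regions 212 (7.46%) were in all 4 WT D1 lists and no KO D1 list, beside 3% of all merged regions. The reverse held for 12 (0.422%), beside 0.743% of all regions. Over KO lists of every day, 210 (7.39%) were in all 4 WT D1 lists and no KO list, beside 2.61%. Taken as a share of the regions in all 4 WT D1 lists, the part in no KO list was 36.5% of the 575 day 5 restriction regions and 7.03% of all 37661 such regions. It was 3.43% for regions kept from D0 and 1.74% for regions in all 4 WT D5 lists. Regions chosen for absence from WT D0 are weaker peaks than those other sets, and the part of strength in this share was not tested. The definition also asked for calls in WT lists and used no KO list, so the choice itself can favour calls in WT. Its part in these counts was not tested either.

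The strongest of the 210 lay next to Trappc11 (chr8:47461701-47461918) and at the end of 1700030K09Rik (chr8:72460200-72460454). The first had −log10 q-values of 9.61 and 5.97 in WT D1 CTL, 5.93 and 7.32 in WT D1 MR, and 17.7 and 14.04 in WT D5 MR. Regions next to Zfp469 (chr8:122039504-122039786), Ergic1 and Laptm4a followed.

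At the other end, 12 regions (0.422%) were in 12 of the 14 lists outside the definition, without a matching share over all merged regions here. The strongest lay in C2cd5, whose product acts in the traffic of a glucose transporter (chr6:143084408-143084962). Its −log10 q-values were 28.4 and 5.59 in KO D0, 60.9 and 15.6 in KO D1 CTL and 46.6 and 16.8 in KO D1 MR. WT D1 gave 7.70 and 3.50 in CTL and 11.1 and 6.11 in MR. This site was thus called in KO cells at every day and in WT cells at D1, and lacked a call only in the D5 lists of KO line 1 and the 4 lists excluded by the definition. Regions at Tmem131l, Mrtfb, Pcbp1 and Plk2 had the same 12 calls, and Mrtfb encodes a coactivator of serum response factor.

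The regions lay inside genes more often than at their ends. With a gene end defined as 1 kb around either end of a protein-coding gene, 7.56% were at a gene end, 53.8% elsewhere in a gene body and 38.7% outside genes. All merged regions gave 15.8%, 45.5% and 38.7%. Regions kept from D0 gave 15.8%, 44.9% and 39.3%, and regions in all 4 WT D5 lists 37.8%, 37.0% and 25.2%. The gene-end share was 12.9% with the 20000 strongest peaks of each list. Of the regions called in both WT D5 MR lists, the day 5 restriction regions made up 7.01% on chromosome 11, the lowest share, and 9.85% on chromosome 16, the highest.

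Each region was assigned to every protein-coding gene it overlapped or else to the nearest within 100 kb, which left 202 regions with no gene. Of 21631 protein-coding genes 2067 (9.56%) had at least 1 region, 325 of them 2 and 110 of them 3 or more. Cdh13, an atypical cadherin gene of 1185 kb, and Mad1l1, a spindle checkpoint gene of 313 kb, had 8 each. Iqsec1, Shroom3 and Vac14 were among those with 6. Genes with 3 or more regions were also ranked by assigned regions per 100 kb of gene length. Regions outside the gene count here, so the value is not a density inside the gene and favours short genes. The highest were Rhob, a small GTPase, Ppp1r3c, a glycogen-targeting subunit of protein phosphatase, Ttc32, Nes and Ephb3. They had 3 regions each except Ephb3 with 5. Nes encodes nestin, an intermediate filament protein of myoblasts.

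Genes of the sarcomere, the contractile unit of muscle, carried these regions more often than genes in general. Of 61 listed genes of the sarcomere and its assembly 28 (45.9%) had at least 1 region, beside 9.56% of all protein-coding genes. For regions kept from D0 the shares were 29.5% and 22.3%, and for regions in all 4 WT D5 lists 73.8% and 44.8%. The listed genes had a median length of 23.0 kb and all genes one of 17.3 kb. With assignment limited to regions within 10 kb of a gene end the counts were 23 of 61 (37.7%) and 4.60% of all genes, and with the 20000 strongest peaks 10 of 61 (16.4%) and 3.86%. No test was made over genes.

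The sarcomere genes fell into all parts of the structure. Thick filament and M-band genes were Myh2, Myh3, Myl1, Mybpc2, Mybph, Myom2 and Myom3. Thin filament genes were Actc1, Tnnt2, Tnnt3, Tnni1, Tnni2, Tpm1, Tpm3 and Neb, the gene of nebulin. Ttn, the gene of titin, and the Z-disc genes Actn2, Myoz2, Ldb3, Csrp3, Synpo2 and Synpo2l also had regions. So did the assembly genes Nrap, Klhl40 and Klhl41, the ubiquitin ligase gene Trim63, and Des, the gene of desmin.

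The strongest sarcomere region lay in Synpo2, which encodes a Z-disc protein that bundles actin (chr3:123138074-123138644), with −log10 q-values of 12.96 and 10.03. It was in both WT D1 MR lists, with 5.12 and 3.03, in neither CTL list, and in 4 KO lists. The next lay 10 kb from Tpm1, a tropomyosin gene (chr9:67059859-67060022), with 16.6 and 9.02. There WT D1 CTL gave 21.1 and 15.01 and WT D1 MR 6.34 and 8.57, and no KO list had a call. A region outside Myom2, the gene of an M-band protein (chr8:15152135-15152360), had 9.30 and 8.38, was in all 4 WT D1 lists and was in no KO list. At Klhl40, whose product stabilises nebulin, the region lay 679 bp from the gene end (chr9:121776528-121776820). It had 12.4 and 7.48, was in all 4 WT D1 lists with 8.69 to 11.8, and in 1 KO list, KO D1 CTL line 1, with 2.88.

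By library, the 43 sarcomere regions were called more in WT than in KO at D1, and many had no call in either. WT D1 CTL held 18 and 9 of them and WT D1 MR 16 and 10, so the media overlapped. KO D1 held 9 in CTL and 4 in MR for line 1, and 0 and 1 for line 2. KO D0 held 2 and 0, and KO D5 at most 1 in each list. In no KO list were 34 of the 43 (79.1%), beside 44.1% (1255) of all day 5 restriction regions. Under each of the 6 alternative definitions this share was lower, at 58.3% to 74.2% for sarcomere regions, beside 34.1% to 44.7% for all. The share of all merged regions in no KO list is not given here, for these or for the later gene lists. Of the 43, 15 were in no list at all outside the definition, beside 454 (15.97%) of all day 5 restriction regions. At D1 the mean share called was 30.8% in WT and 8.14% in KO for sarcomere regions. All day 5 restriction regions gave 48.5% and 29.6%.

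The other muscle lists had fewer genes with a region. Of 20 fusion genes 7 (35%) had a region, beside 9.56% of all protein-coding genes. They were Mymk and Mymx, which encode the muscle fusogens, Dysf, the membrane repair gene, Bin1, Adam12, Adgrb1 and Trim72. Of 30 genes of excitation-contraction coupling and the endplate 8 (26.7%) had one. These were Ryr3, Cacna1s, Cacnb1, Casq2, Jph1, Jph2, Trdn and Srl, which serve calcium release and storage. Of 20 genes of muscle energy metabolism 6 (30%) had one, namely Ckm, the creatine kinase gene, Pgam2, Hk2, Ppargc1a, Cox8b and Fabp3. Of 21 myogenic transcription factors 3 (14.3%) had one, Myog, Mef2a and Eya4. For regions within 10 kb of a gene end the shares were 25%, 10%, 20% and 4.76% in this order, beside 4.60% of all genes. The fusion genes had a median length of 58.6 kb, beside 17.3 kb for all genes.

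At Myog the region lay 5.0 kb from the gene (chr1:134284556-134285008), with −log10 q-values of 7.26 and 3.66 in WT D5 MR. Of the other 14 lists only WT D1 MR replicate 1 had it, with 3.56. A further region lay 13.5 kb from Myog and was in no other list. The Mef2a region, 68 kb from the gene (chr7:67444613-67444920), was in all 4 WT D1 lists with 6.56 to 10.3 and in no KO list. Near Ckm the region lay 1.1 kb from the gene (chr7:19409802-19410040) and was in both WT D1 CTL lists, with 5.39 and 1.34, in WT D1 MR replicate 1, with 2.76, and in no KO list. The Cox8b promoter region printed above was in no list but those of WT D5 MR, with 4.80 and 4.38.

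Some muscle genes had regions that were called in KO lists. The region of Trdn, the gene of triadin, (chr10:33179708-33180267) was in 12 lists, with −log10 q-values of 32.5 and 14.1 in KO D0 and 27.5 and 24.3 in KO D1 CTL. WT D1 CTL gave 4.53 and 3.55. The Trdn region was in all 4 WT D1 lists, whereas Ryr3, Tpm3 and Myh2 had regions called in KO lists and in no WT D1 list.

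Across the 5 muscle lists 52 of 152 genes (34.2%) carried 76 regions, and 56 of these (73.7%) were in no KO list, against 43.3% of the other 2767 day 5 restriction regions. The regions of the muscle lists were called on average in 35.9% at WT D1 and in 9.54% at KO D1, where all day 5 restriction regions gave 48.5% and 29.6%. The median rank was 15.5 for the muscle regions and 17.6 for the others. Among regions in no WT D1 list, 85.7% of 28 muscle regions and 67.1% of 641 others were in no KO list. Among regions in all 4 WT D1 lists the shares were 41.7% of 12 and 36.4% of 563. With 1, 2 and 3 WT D1 lists they were 88.2% against 45.4%, 61.5% against 33.3% and 66.7% against 31.5%. The gap between muscle and other day 5 restriction regions was smallest in regions of all 4 WT D1 lists. A gap was also present outside the day 5 restriction regions. There, 12.02% of 491 muscle regions in all 4 WT D1 lists were in no KO list. The share was 6.95% of 37158 for all merged regions of other genes in all 4 WT D1 lists. A higher share in muscle regions was thus not particular to the day 5 restriction regions. Such shares are not given here for fewer WT D1 lists. All 152 genes are read in the same libraries, and regions are not replicates, so these shares are descriptions.

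**Figure D4:**
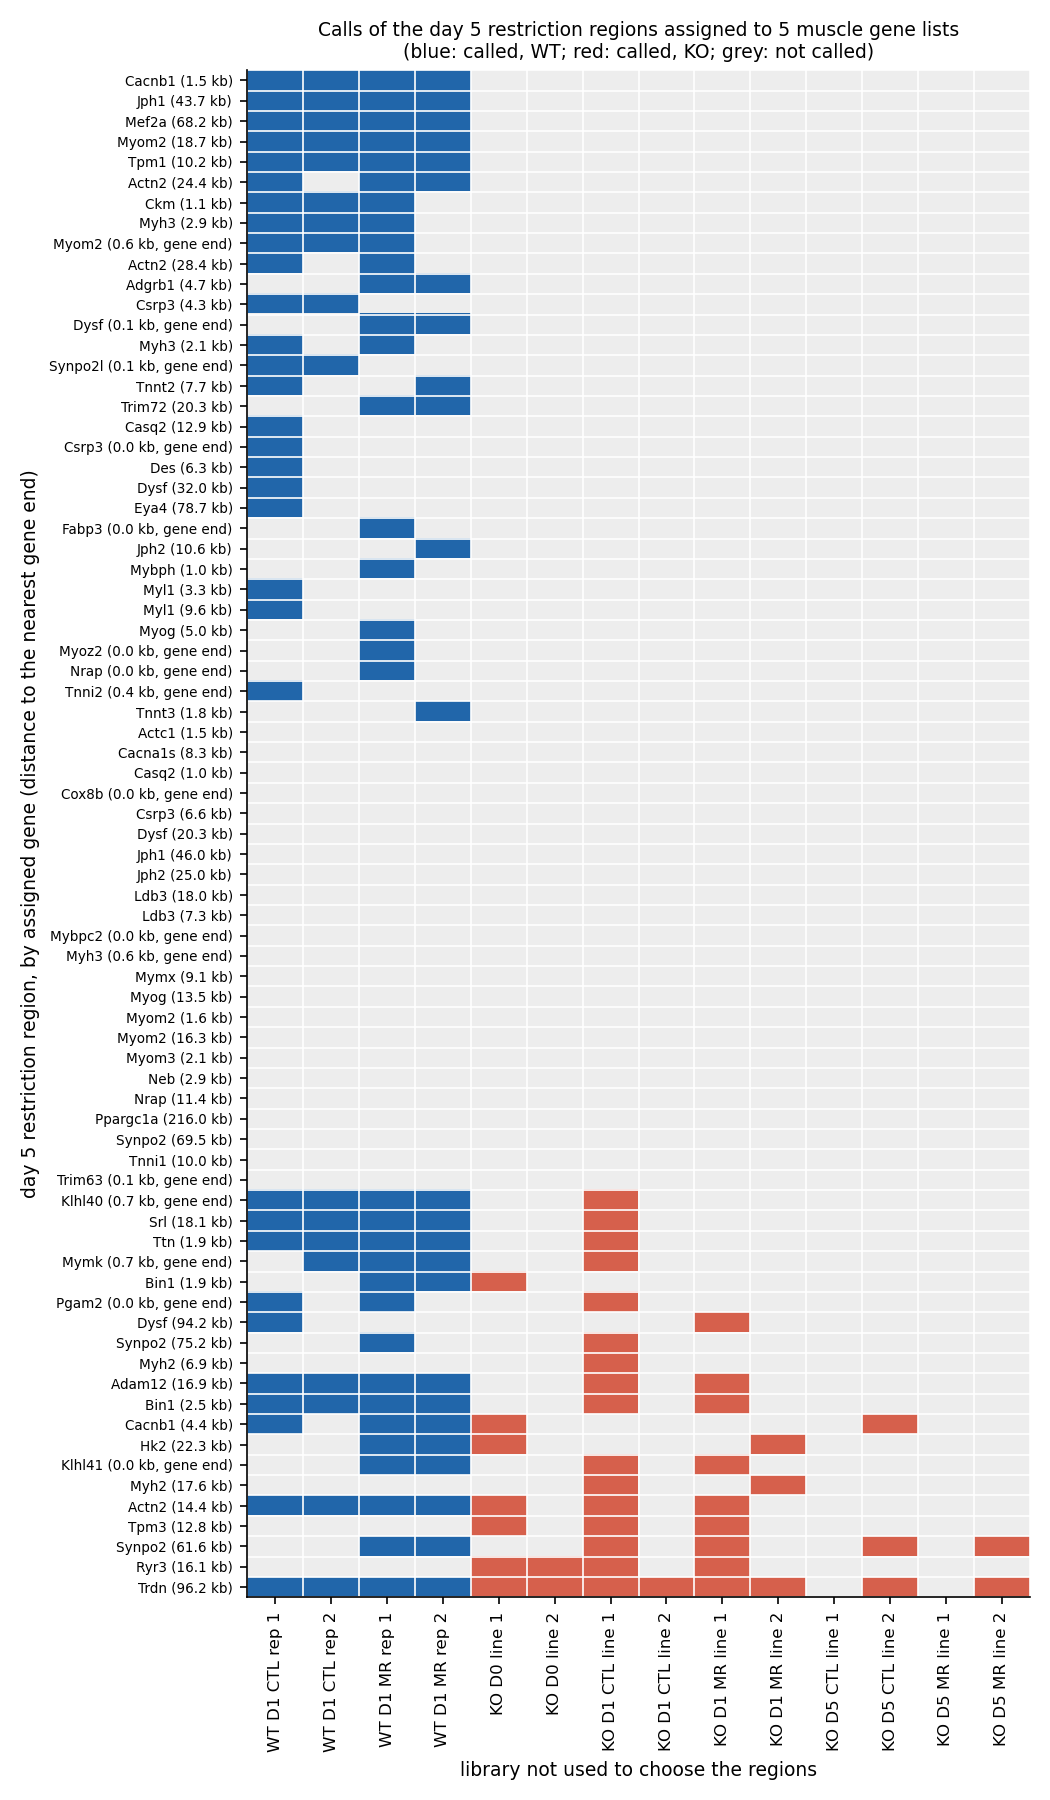
Calls of 75 of the 76 regions assigned to the 5 muscle lists (y axis, by gene, with the distance to the nearest gene end in kb) in the 14 libraries that did not define them (x axis); blue marks a call in WT, red a call in KO and grey no call. The upper 55 rows have no red field, and red fields gather in line 1 at D0 and D1.

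The lists of matrix, Tead and TGF-beta genes also had shares above the 9.56% of all protein-coding genes. Their median lengths were above the 17.3 kb of all genes, and the part of gene length was not tested. The list of H3K36 methylation and its readers, with a median length of 72.9 kb, had a share of 8%. Of 46 genes of the extracellular matrix and adhesion 17 (37.0%) had a region, among them Itga5, Col4a1, Postn and Loxl1. For regions kept from D0 the share was 69.6%, beside 22.3% of all protein-coding genes. The 46 genes had a median length of 58.4 kb, and 6 of 46 (13.04%) had a region within 10 kb of a gene end, beside 4.60% of all genes. Of their 24 regions 10 (41.7%) were in no KO list, beside 44.1% of all day 5 restriction regions. WT D1 lists held 9 to 17 of the 24 and KO D1 lists 5 to 12. The Col4a1 region, near the gene of a basement membrane collagen (chr8:11183723-11184031), had 12.8 and 8.63 and was in all 4 WT D1 lists and 2 KO lists. Of 21 Tead, Yap and Runx genes, with a median length of 51.2 kb, 8 (38.1%) had a region, including Tead1, Amotl1, Lats2 and Ankrd1, and 3 (14.3%) had one within 10 kb of a gene end. Of 36 genes of TGF-beta, BMP and IGF signalling 9 (25%) had a region, including Smad3, Tgfb2 and Igfbp5. Of the same genes 2 (5.56%) had one within 10 kb of a gene end.

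Genes of the response to amino acid shortage that Atf4 drives had regions in 9 of 37 cases (24.3%), beside 9.56% of all protein-coding genes. For regions kept from D0 the shares were 40.5% and 22.3%. Within 10 kb of a gene end they were 6 of 37 (16.2%) and 4.60% for the day 5 restriction regions. The 9 genes were Trib3, Chac1, Slc7a11, Slc38a2, Slc6a9, Gars, Wars, Vldlr and Ppp1r15a, which include amino acid transporters, tRNA synthetases and regulators of the response. Their 10 regions were called 4 and 3 times in WT D1 CTL and 8 and 6 times in WT D1 MR, so MR lay above CTL without overlap, as it did for all day 5 restriction regions. As shares these were 40% and 30% in CTL and 80% and 60% in MR. Of the 10, 2 (20%) were in no KO list. At Wars, a tRNA synthetase gene, the region 503 bp from the gene end (chr12:108893152-108893649) had 2.79 and 1.87 in WT D1 CTL, 9.56 and 12.4 in WT D1 MR and 4.37 in KO D1 MR line 2. The region near Slc38a2, a transporter of neutral amino acids (chr15:96718556-96718711), was in no WT D1 list. In KO it was called in D0 line 1 (1.97), in D1 MR line 2 (6.41) and in D5 MR line 2 (3.90). None of 23 genes of the methionine cycle and polyamine synthesis had a region.

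Lists near the 9.56% of all protein-coding genes were those of the cell cycle (3 of 35, 8.57%: Cdkn1a, Cdk1 and Ccnd3), myogenic repressors (3 of 27, 11.1%: Id2, Zeb1 and Dll1) and H3K36 methylation and its readers (2 of 25, 8%: Ash1l and Kdm2b). Of AP-1 factors 1 of 21 (4.76%) had a region, Bach1. Cdkn1a encodes the cell cycle inhibitor p21, and its promoter region (chr17:29090879-29091003) was in both WT D1 MR lists, with 4.55 and 2.51, in neither CTL list and in no KO list. Markers of other cell types gave 4 of 12 adipocyte genes (33.3%, beside 34.2% for the 5 muscle lists), 1 of 13 bone and cartilage genes (Spp1), 1 of 15 fibroblast, tendon and smooth muscle genes (Acta2) and 0 of 14 neural genes. The adipocyte genes were Pparg, Cebpa, Lep and Lpl. Within 10 kb of a gene end, 0 of the 12 listed adipocyte genes had a region. For the 5 muscle lists this count was 36 of 152 genes (23.7%), beside 4.60% of all genes. The stronger Pparg region, 23 kb from the gene (chr6:115337211-115337436), had 14.6 and 8.99 and was in no list but those of WT D5 MR.

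**Figure D5:**
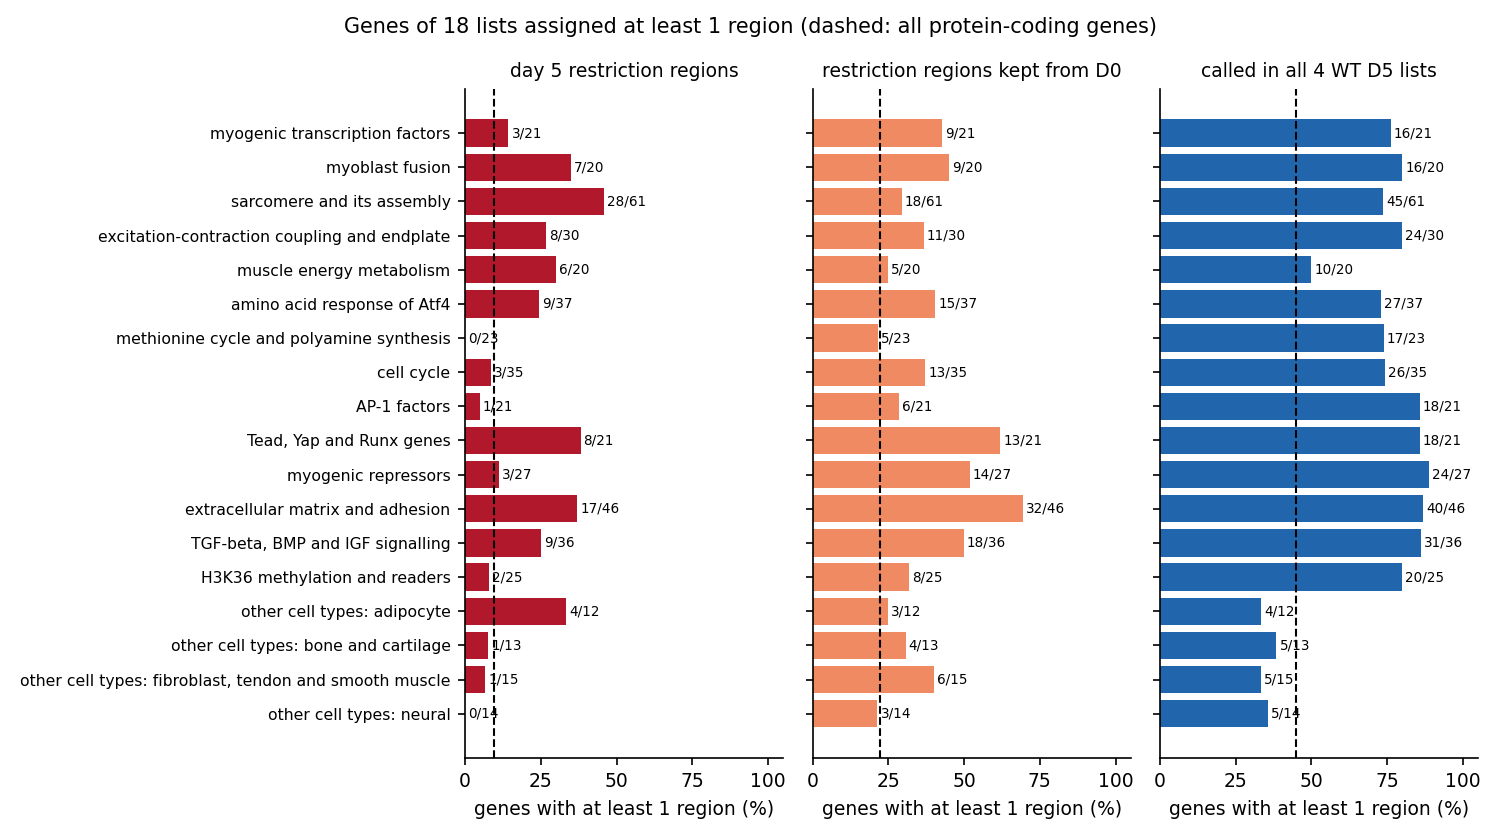
Percent of the genes of each of 18 lists (y axis) with at least 1 assigned region (x axis), for 3 sets of regions, with the count of genes at each bar; dashed lines mark the share over all protein-coding genes (9.56%, 22.3% and 44.8%). For the day 5 restriction regions the sarcomere list has the longest bar, 28 of 61 genes.

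MR was tested against CTL region by region in the strata that the definition did not use, WT D1, KO D1 and KO D5. The exact permutation test within strata had 216 arrangements and a smallest two-sided p of 0.00926. Calls of 725 regions allowed a p of 0.05 or lower, 52 of them day 5 restriction regions. After Benjamini-Hochberg adjustment 0 of the 725 passed (0% of those tested), and 0 of the 52. At the smallest p, 135 regions would have been needed for a call, so the count of 0 says little. At an unadjusted p under 0.05 there were 5 regions, 1 of them a day 5 restriction region. That region, at Cops7b, a COP9 signalosome subunit gene (chr1:86622330-86622783), was named after its values were seen. It was in 4 of 4 D1 MR lists and 0 of 4 D1 CTL lists of both genotypes, and in 1 of 2 KO D5 MR lists (exact permutation p = 0.0278, adjusted 0.968).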

How the data were processed

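The authors deposited a broadPeak list per ATAC-seq library of C2C12 cells, 20 in all, with no pooled list. DNA was tagmented with a kit enzyme after lysis and amplified in 10 cycles of PCR, per the labels' protocols. The aligner, the filters, the transposase shift and the peak caller are not given in the sources used here, and the build is GRCm38 per the submitters' processing notes. Each deposited peak carries a score, not used here, and the authors' fold enrichment, a ratio. It also carries the authors' −log10 values of p and q. The lowest deposited −log10 q-value was 1.00. These values rank or filter peaks within a list, and values from different lists stand side by side without a comparison of their size. Read totals were not used, so the depth of the libraries is unknown.

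Peaks, 787806 in all, were merged and counted with Python 3.11.15, numpy 2.4.6 and pandas 2.3.3. Groups came from the titles. The gene table has no strand, so either gene end counts. The exact permutation test was tested on simulated data. KO libraries of MR and CTL are paired by cell line, by design, whereas WT libraries share only a number. Regions were named by rule: the strongest 10, up to 4 of each gene list, the strongest 5 of each call pattern described, the 2 weakest and the 2 nearest misses, and genes with the most regions. The regions and the gene lists were chosen with earlier results of these data known. Alternatives changed the overlap, the q-value threshold, the number of peaks, the distance to excluded peaks, the gene-end width and the libraries used. Sequences of the regions outside the promoter table were not used here. Some items are not reported here.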

Additional observations from a re-analysis of the deposited data

How the results depend on the processing

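Limits come first from calling: a region absent from a list may lie below its threshold, WT D5 CTL lists were shorter than WT D5 MR lists, and KO at D5 rests on line 2. With the 20000 strongest peaks of each list there were 951 day 5 restriction regions (209 of them among the 2843). The WT minus KO difference at D1 was −3.42 points, the gene-end share 12.9%, the gene-body share 49.3% and the sarcomere count 10 genes. The mean share called in KO D5 over both lines was 15.75% instead of 5.79%, and it includes the short lists of line 1. Under the main definition that mean was 11.4% without line 1 and 0.158% without line 2. Without replicate 1 or 2 of the WT groups used in the definition there were 4874 and 7503 regions, gene-end shares of 8.58% to 9.88% and gene-body shares of 50.2% to 52.9%. A peak that covers 50% of the region gave 3609 regions, 1898 of them shared, with 10.1% at gene ends and 51.9% in gene bodies. With no excluded peak within 1000 bp the gene-end share was 6.26%, and with gene ends of 500 or 2000 bp it was 4.61% or 12.9%, and 51.0% lay in gene bodies at the wider setting. Peaks with a −log10 q-value above or equal to 2 left 2529 regions, 2217 of them shared. The cause of these shifts was not tested. The WT D1 difference between MR and CTL stayed positive in the 6 alternatives tried for it, from 12.5 to 26.9 points.

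For the region test, the replicate block that pairs the KO libraries by line left 96 regions to test and 0 past the threshold, with 5 at an unadjusted exact permutation p under 0.05, 1 of them a day 5 restriction region. With WT libraries also paired by number, 0 regions allowed a p of 0.05 or lower. The count past the threshold was 0 in the other alternatives with regions to test, where 72 to 252 regions at the smallest p would have been needed for a call (40 under the block), so these counts say nothing about stability. Also, without KO line 1 or 2 the smallest exact permutation p was 0.0833.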

Other observations

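Some regions lay near microRNA genes. The closest overlapped the hairpin of Mir3087 inside Abca2 (chr2:25442765-25443066) and was in 4 of the 14 lists outside the definition. A region 2.1 kb from the middle of the Mir139 hairpin in Pde2a was in 5 of them, and one near Mir34b in 8.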
